A study of Mus musculus with 8 samples.

Results

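The genes described are the integrin alpha and beta subunits and the laminin chains, chosen as all symbols of the deposited tables that name an Itga gene, an Itgb gene from 1 to 8, or a Lama, Lamb or Lamc gene. This rule found 37 of 23420 genes, 26 integrin and 11 laminin genes, and uses no measured value. They were measured by RNA-seq of total RNA in 8 libraries of mouse embryonic fibroblasts on a C57BL6/N background, 4 with wild-type Neat1 and 4 homozygous for a null allele of it (Neat1-/-, called Neat1 null here). Cells of both groups expressed the adenoviral oncoprotein E1A and the activated Ras protein HRasV12, and grew in DMEM with 10% FCS. The comparison asks which of these genes differ between oncogene-expressing fibroblasts with and without Neat1, a long noncoding RNA around which nuclear paraspeckles form. Whether the 4 libraries of each genotype trace back to different embryos is not in the labels, and p-values then measure only the spread between these libraries. How much of that spread is technical is not known. By Xist and Y-linked genes the Neat1 null group holds libraries of both sexes.

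Integrins are transmembrane receptors in which an alpha and a beta subunit pair, and the pair decides which matrix protein or cell surface ligand is bound. Itgb1 is the most widely shared beta subunit, Itgav pairs with several beta subunits to bind matrix proteins with an RGD motif, and a further set of subunits belongs to leukocytes. Laminins are basement membrane proteins built from an alpha, a beta and a gamma chain, and bind to cells through integrins and dystroglycan. Fibroblasts attach to fibronectin and collagen through these receptors and make several laminin chains themselves.

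Neat1 ran at 138 to 1320 CPM in wild-type and at 6.12 to 11.3 CPM in Neat1 null libraries, in order with the genotype labels of all 8. CPM here means the read count of a gene scaled to a common library size. Counts in genes ranged from 19651035 to 38950207 per library. Of the fibroblast markers, Vim ran at 1233 to 3263 CPM, but Col1a1 at only 1.29 to 12.4 CPM, and Dcn and Lum stayed below 1 CPM in all 8 libraries. Pdgfra, a receptor of mesenchymal cells, was at 41.2, 40.9, 148 and 129 CPM in wild-type libraries but at 10.9, 8.36, 3.92 and 6.87 CPM in Neat1 null ones (log2 fold change -3.59, SE 0.51, adjusted p = 0.00806, edgeR). It was highest in wild-type libraries 3 and 4, where most called genes described below were also highest, and its part in their levels was not tested. The marker S100a4 was higher in Neat1 null libraries (2.08, adjusted p = 0.0473), with 29.0 CPM in library 1 and 2.72 to 4.28 CPM in the other Neat1 null libraries, against 2.07 to 2.53 CPM in wild-type. The epithelial marker Epcam ran at 26.9 to 64.6 CPM. In bulk RNA, fewer cells of a kind and less RNA per cell cannot be told apart. All 4 wild-type libraries were female by Xist and Y-linked genes, and of the Neat1 null libraries only number 3 was. None of the 37 genes lies on a sex chromosome.

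Start site sequences are shown for 4 genes, which form 2 contrasts of the results. Itga1 and Itga2 encode alpha subunits of collagen receptors, lie 20995 bases apart on chromosome 13, and both fell. Itgav and Itgb5 encode partner subunits of a single receptor, and only Itgav passed the test. Each run is 300 bases, from 250 bases before to 50 after the RefSeq start (GRCm38.p6), on the strand of the gene. The windows are chr13:115101915-115102214 (minus strand) for Itga1, chr13:114932051-114932350 (minus) for Itga2, chr2:83724147-83724446 (plus) for Itgav and chr16:33829415-33829714 (plus) for Itgb5. Capitals mark the GC box letters GGGCGG on either strand.
Itga1: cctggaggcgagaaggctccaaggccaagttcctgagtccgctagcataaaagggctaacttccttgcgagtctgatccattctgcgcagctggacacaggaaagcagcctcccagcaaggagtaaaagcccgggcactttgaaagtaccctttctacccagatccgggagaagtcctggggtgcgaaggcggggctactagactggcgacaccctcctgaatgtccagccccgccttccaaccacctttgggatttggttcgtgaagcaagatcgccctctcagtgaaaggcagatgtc
Itga2: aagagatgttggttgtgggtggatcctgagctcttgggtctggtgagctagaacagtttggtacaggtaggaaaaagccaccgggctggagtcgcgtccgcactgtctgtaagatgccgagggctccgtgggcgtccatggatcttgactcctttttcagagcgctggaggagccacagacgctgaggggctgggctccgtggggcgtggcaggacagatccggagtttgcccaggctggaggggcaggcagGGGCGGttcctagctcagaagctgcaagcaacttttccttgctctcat
Itgav: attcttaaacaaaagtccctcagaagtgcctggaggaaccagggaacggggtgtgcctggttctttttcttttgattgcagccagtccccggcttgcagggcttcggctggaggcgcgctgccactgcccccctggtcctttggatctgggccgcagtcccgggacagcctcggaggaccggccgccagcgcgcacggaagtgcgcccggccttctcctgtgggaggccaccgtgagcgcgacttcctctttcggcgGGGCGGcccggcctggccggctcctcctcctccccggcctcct
Itgb5: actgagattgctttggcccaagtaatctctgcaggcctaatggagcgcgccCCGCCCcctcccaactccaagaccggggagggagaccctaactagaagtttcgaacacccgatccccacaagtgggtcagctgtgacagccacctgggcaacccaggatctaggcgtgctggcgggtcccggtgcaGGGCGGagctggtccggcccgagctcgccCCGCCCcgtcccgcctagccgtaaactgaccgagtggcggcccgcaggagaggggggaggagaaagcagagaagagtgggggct
The Itgb5 window held 3 GC boxes, those of Itgav and Itga2 had 1 each, and that of Itga1 had 0. RefSeq windows matched 23 of the 37 genes. A GC box lay in 4 of 6 called genes with a window and in 6 of the other 11 tested genes, against 35.7% of all 32851 windows. The AP-1 letters TGANTCA were found in 0 of 6 and 1 of 11, against 7.81% of all windows, and the TATA letters TATAAA in 0 of both, against 13.6%. Windows of called genes held 1 to 24 CpG pairs with a median of 11, those of the other tested genes 5 to 27 with a median of 13, and all windows had a median of 7.

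Of the 37 genes, 28 had enough counts to be tested. Tests were run with edgeR's quasi-likelihood F test over 13316 genes, with Benjamini-Hochberg adjustment and a threshold of 0.05. In Neat1 null libraries 8 of the 28 were lower, namely Itga1, Itga2, Itga4, Itgav, Itgb3, Lama2, Lama4 and Lamb2, and 0 were higher. Over all genes tested, 7.72% were called lower and 9.97% higher. At an unadjusted p under 0.05, 13 were lower and 1, Lamc3, was higher, against 36% of all genes in either direction. DESeq2 called 10 lower and Lamc3 higher of 33 with an adjusted p, against 23.9% of all genes. The log2 fold change (Neat1 null minus wild-type) was below 0 for 24 of the 28, against 52.2% of all genes tested, and its median was -1.14 against -0.06. Of the 28, 20 stood above the count limit in every library, and 5 of these 20 were called. Itga2, Itga4 and Lama2 were among the 8 tested genes below that limit in some libraries, and each passed it in all 4 wild-type but in only 1, 2 and 2 Neat1 null libraries. A gene that enters the test through its wild-type level is favoured to differ, though not every such gene was called (Itgb8 was not). The share called among the 28 therefore carries no weight of its own.

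Every call depended on each of 3 libraries. When number 3 or number 4 of the wild-type libraries, or number 3 of the Neat1 null ones, was left out, 0 of the tested genes were called, while 11, 9 and 10 were lower at an unadjusted p under 0.05. These fits tested 28, 29 and 30 of the described genes. In them the share of all genes called was 0.135%, 0.0820% and 0.0950%. With all libraries kept, 36% of all genes had an unadjusted p under 0.05, and that share is not given here for these fits. With any other library left out, 6 to 10 were called lower.

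**Figure D1:**
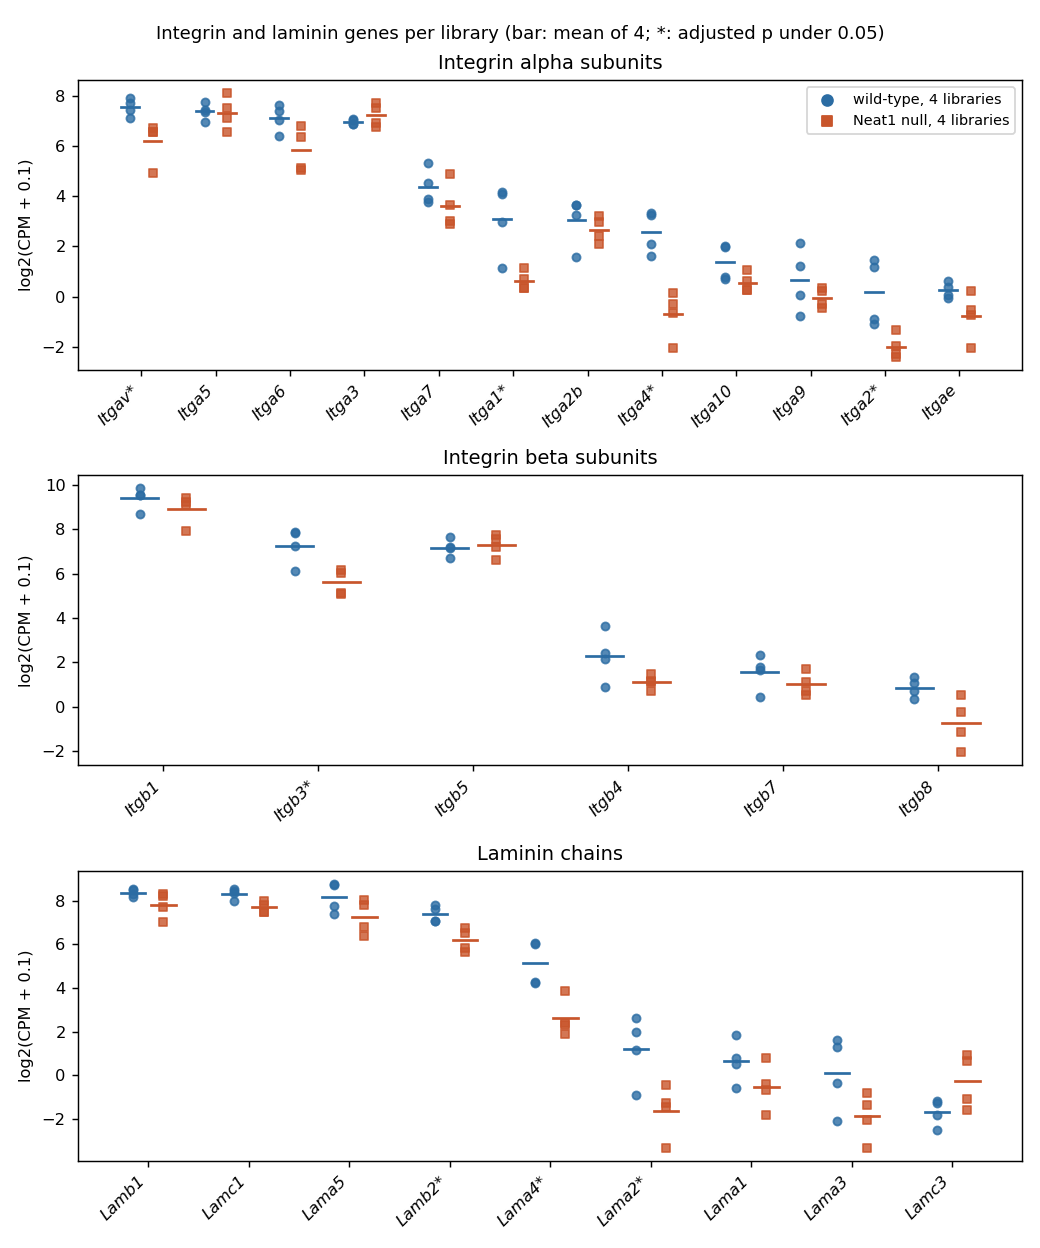
Level of the tested genes described here in each library as log2(CPM + 0.1), ordered in each panel by mean CPM in wild-type libraries. Blue circles are the 4 wild-type and orange squares the 4 Neat1 null libraries, bars are means, and an asterisk marks an adjusted p under 0.05. The called genes range from Itgav, at 140 to 246 CPM in wild-type libraries, down to Itga2, at 0.371 to 2.63 CPM.

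The steepest fall among alpha subunits was that of Itga4, which pairs with Itgb1 or Itgb7 and binds fibronectin and Vcam1. Itga4 (chr2:79255426-79333123) had 4.14, 2.94, 9.88 and 9.44 CPM in wild-type libraries 1 to 4 and 0.539, 0.997, 0.141 and 0.722 CPM in Neat1 null libraries 1 to 4. The groups did not overlap, and the means were 6.60 ± 3.57 and 0.600 ± 0.359 CPM (SD, n = 4). On the log2 scale the difference was -3.44 ± 0.66 (SE), with an adjusted p of 0.0180 in edgeR. Groups that do not overlap, with Neat1 null lower, were seen for 6 of the 28 genes, against 11% of all genes tested. Of the 20 genes above the count limit in every library it was 4, since Itga2 and Itga4 entered the test through their wild-type level. Exons of Itga4 overlap Cerkl on the other strand, as those of Itgav overlap Gm13684 and those of Lama2 Gm48084, and Itga1 shares exon sequence with Gm49395 on its own strand, so part of these counts is uncertain.

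The collagen-binding partners of Itgb1 encoded side by side on chromosome 13, Itga1 and Itga2, both fell. Itga1 (chr13:114953096-115101964) had 2.12, 7.75, 17.1 and 18.1 CPM in wild-type and 1.17, 2.08, 1.16 and 1.51 CPM in Neat1 null libraries. The lowest wild-type library, number 1, stood just above the highest Neat1 null library. Itga1 differed by -2.92 ± 0.61 (SE) on the log2 scale, with an adjusted p of 0.0180 in edgeR. Itga2 (chr13:114833081-114932100) was scarce, with 0.371, 0.442, 2.19 and 2.63 CPM in wild-type and 0.0898, 0.293, 0.106 and 0.157 CPM in Neat1 null libraries. These values rest on 236 reads in the wild-type group and 19 in the Neat1 null group. On the log2 scale the difference was -3.02 ± 0.79 (SE), with an adjusted p of 0.0233 in edgeR. In both genes wild-type libraries 3 and 4 were high and 1 and 2 were lower. A further collagen receptor subunit, Itga10, had a log2 fold change of -0.98 (95% interval -2.14 to 0.17, adjusted p = 0.204), and Itga11 was not tested, with at most 0.443 CPM.

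Itgav, the alpha subunit of the RGD-binding vitronectin receptors, was the most abundant called alpha subunit per length. Itgav (chr2:83724397-83806916) had 175, 140, 246 and 214 CPM in wild-type and 94.9, 107, 30.3 and 94.3 CPM in Neat1 null libraries. No Neat1 null library reached the wild-type range, and library 3 was far below the other Neat1 null libraries. On the log2 scale the difference was -1.25 ± 0.41 (SE), with an adjusted p of 0.0472 in edgeR, near the threshold. Of 8 fits with a library left out, the call held only in that without Neat1 null library 2 (adjusted p = 0.0440 to 0.140 over the 8), and the log2 fold change was -0.49 once length and GC trends were removed per library (adjusted p = 0.221).

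Its partner Itgb3 also fell. Itgb3 (chr11:104608000-104670476) had 69.0, 154, 233 and 226 CPM in wild-type and 34.3, 65.0, 35.1 and 72.0 CPM in Neat1 null libraries. The groups overlapped, because wild-type library 1 lay below Neat1 null library 4. On the log2 scale the difference was -1.72 ± 0.43 (SE), with an adjusted p of 0.0212 in edgeR. Itgb5, another partner of Itgav, had 103, 144, 145 and 204 CPM in wild-type and 191, 98.0, 217 and 149 CPM in Neat1 null libraries. Its values intermingled, with a log2 fold change of 0.14 (95% interval -0.64 to 0.91, adjusted p = 0.809), and the sign turned with upper-quartile scaling (-0.08). Itgb8, a scarce partner of Itgav that binds latent TGF-beta, had a log2 fold change of -1.41 (95% interval -2.79 to -0.02, adjusted p = 0.135). Itgb6, a further partner and mainly epithelial, had 4 reads in the wild-type group and 2 in the Neat1 null group.

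The fibronectin receptor subunit Itga5 and the laminin receptor subunit Itga3 were the most abundant alpha subunits per length and did not pass. Itga5 had 127, 219, 177 and 163 CPM in wild-type and 95.1, 140, 280 and 185 CPM in Neat1 null libraries. Neat1 null libraries 1 and 3 lay at the extremes, and the log2 fold change was 0.03 (95% interval -0.79 to 0.85, adjusted p = 0.958), or -0.16 with upper-quartile scaling. Itga3 had 119, 119, 132 and 136 CPM in wild-type, a narrow range, and 185, 108, 211 and 121 CPM in Neat1 null libraries. Its log2 fold change was 0.30 (95% interval -0.42 to 1.03, adjusted p = 0.541). Itga6, the other abundant laminin receptor subunit, had 84.1, 132, 170 and 200 CPM in wild-type and 34.9, 111, 32.7 and 83.8 CPM in Neat1 null libraries. It did not pass either (log2 fold change -1.16, adjusted p = 0.0784), but was called without Neat1 null library 2 (-1.52, adjusted p = 0.0332) and with the replicate number as a block. Itga7, a laminin receptor subunit best known from muscle, had a log2 fold change of -0.69 (95% interval -1.74 to 0.35).

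Among the beta subunits, Itgb1 was the most abundant, with 750, 412, 920 and 749 CPM in wild-type and 544, 679, 242 and 611 CPM in Neat1 null libraries. The ranges overlapped over most of their width, and the log2 fold change was -0.45 (95% interval -1.36 to 0.46, adjusted p = 0.468). Thus the alpha subunits Itga1, Itga2 and Itga4 were called and their shared partner was not, and these differences between genes were not tested. Itgb4, the partner of Itga6 in hemidesmosomes, had 1.78, 4.37, 5.27 and 12.5 CPM in wild-type and 2.16, 1.53, 2.68 and 2.04 CPM in Neat1 null libraries. It had a log2 fold change of -1.51 that did not pass (adjusted p = 0.0753), but did without wild-type library 1 (adjusted p = 0.0261) and with DESeq2. The summed epithelial markers ran from 195 to 634 CPM in wild-type and from 251 to 3183 CPM in Neat1 null libraries, mostly Krt18, with Krt14 at 0 everywhere. Their part in the level of Itgb4 was not tested. Itgb7, partner of Itga4 and Itgae, had a log2 fold change of -0.67 (95% interval -1.84 to 0.49, adjusted p = 0.388).

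**Figure D2:**
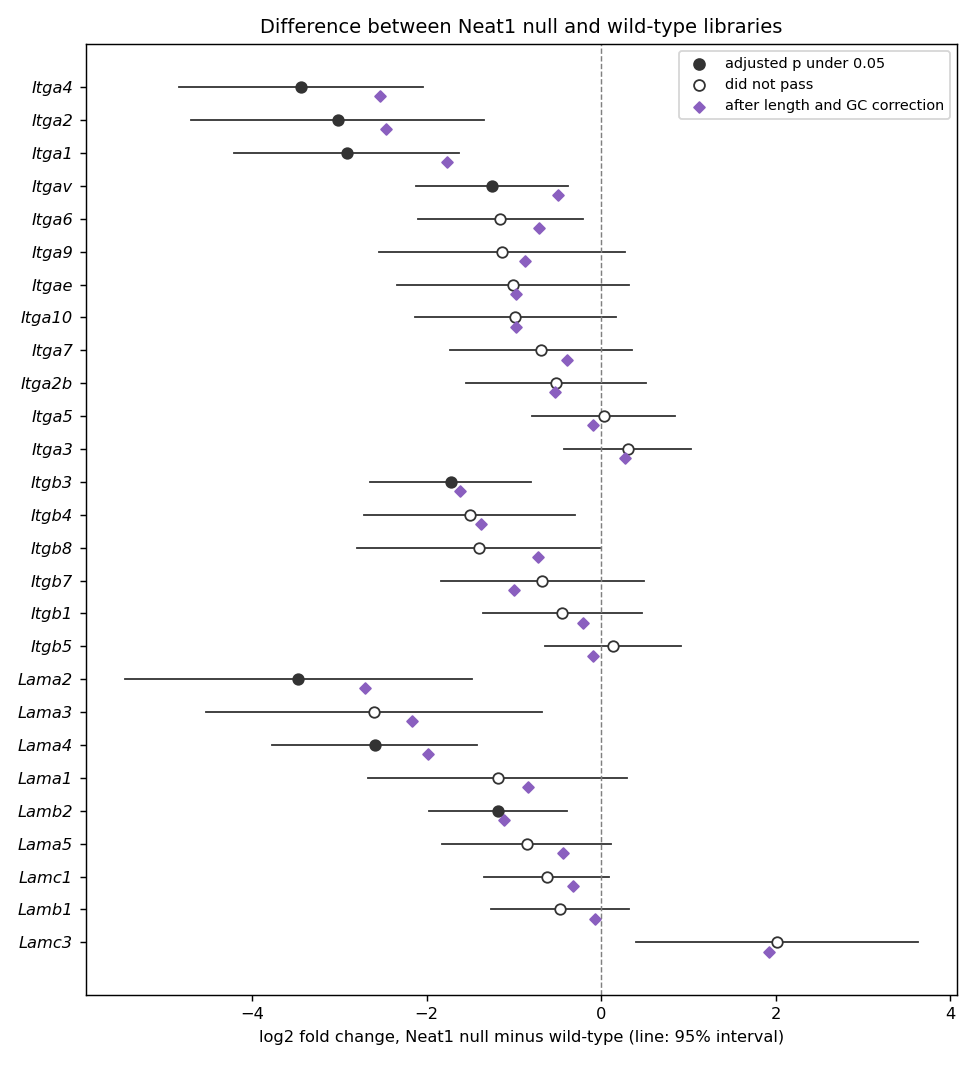
Log2 fold change of the tested genes described here, Neat1 null minus wild-type, with 95% intervals (lines), filled circles for an adjusted p under 0.05, and violet diamonds for the value after correction for gene length and GC content. The estimates run from -3.47 for Lama2 to 2.02 for Lamc3, and the diamonds of Itgav, Itga1 and Itga4 lie nearer 0 than their circles.

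Laminin alpha chains carry the cell-binding domains of the trimer. Lama4, the alpha chain of laminins around vessels and mesenchymal cells, fell furthest among those with more than a few CPM. Lama4 (chr10:38965515-39110188) had 18.8, 19.4, 65.9 and 65.4 CPM in wild-type and 4.85, 3.55, 5.19 and 14.4 CPM in Neat1 null libraries. The groups did not overlap, although Neat1 null library 4 came close to wild-type libraries 1 and 2. On the log2 scale the difference was -2.59 ± 0.55 (SE), with an adjusted p of 0.0180 in edgeR. Summed endothelial markers ran from 36.003 to 78.4 CPM in wild-type and from 23.5 to 151 CPM in Neat1 null libraries, while Pecam1, Cdh5, Tie1, Tek and Esam stayed below 1 CPM throughout. Egfl7, with 150.4 CPM in Neat1 null library 1, carried the highest sum. Kdr had 4.53 ± 3.48 and 1.09 ± 0.772 CPM (log2 fold change -2.01, adjusted p = 0.0736), and Emcn had 16.7 and 39.7 CPM in wild-type libraries 1 and 3 and at most 0.0314 CPM in the other 6 libraries. The part of these markers in the level of Lama4 was not tested.

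Lama2, the chain of muscle and nerve basement membranes, had 2.09, 0.442, 6.11 and 3.80 CPM in wild-type and 0.629, 0.264, 0 and 0.314 CPM in Neat1 null libraries. Wild-type library 2 lay inside the Neat1 null range. For Neat1 null library 3 the count of 0 allows up to 0.106 CPM, counting error only. Lama2 (chr10:26980036-27619758) differed by -3.47 ± 0.93 (SE) on the log2 scale, with an adjusted p of 0.0248 in edgeR, resting on 517 reads in the wild-type group and 26 in the Neat1 null group. Of the muscle and Schwann cell markers Mbp fell (-1.86, adjusted p = 0.0420), while Myod1 was at 0 everywhere, and their part in the level of Lama2 was not tested. Lama3, the epithelial chain of anchoring laminins, had a log2 fold change of -2.60 that narrowly missed the threshold (adjusted p = 0.0573). It passed with upper-quartile scaling, with DESeq2, with no count limit, and without wild-type library 1 or 2. Lama1, the chain of the early embryo, had a log2 fold change of -1.19 (95% interval -2.67 to 0.30, adjusted p = 0.229).

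Lama5, the most abundant alpha chain, had 165, 218, 415 and 433 CPM in wild-type and 263, 83.9, 222 and 111 CPM in Neat1 null libraries. Wild-type libraries 3 and 4 were high, and wild-type libraries 1 and 2 fell inside the Neat1 null range. Its log2 fold change was -0.85 (95% interval -1.82 to 0.11, adjusted p = 0.186).

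Of the beta chains, Lamb2 fell, while Lamb1 did not pass. Lamb2 (chr9:108479736-108490530) had 132, 133, 224 and 198 CPM in wild-type and 106, 49.2, 57.2 and 90.4 CPM in Neat1 null libraries, with no overlap. On the log2 scale the difference was -1.18 ± 0.37 (SE), with an adjusted p of 0.0400 in edgeR, and of 8 fits with a library left out the call held only in those without wild-type or Neat1 null library 1 (adjusted p = 0.0374 to 0.135 over the 8). Lamb1 had 312, 288, 355 and 370 CPM in wild-type and 320, 210, 129 and 295 CPM in Neat1 null libraries. Only Neat1 null libraries 2 and 3 stood clearly lower, and the log2 fold change was -0.47 (95% interval -1.26 to 0.32, adjusted p = 0.373).

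Among gamma chains, 0 passed with edgeR. Lamc1, the gamma chain of most laminins, had 250, 370, 344 and 327 CPM in wild-type and 181, 225, 177 and 253 CPM in Neat1 null libraries. Only Neat1 null library 4 reached the wild-type range, and the log2 fold change was -0.63 (95% interval -1.35 to 0.10, adjusted p = 0.195). Lamc3 had the only positive estimate among laminins, at 2.02 (SE 0.76, adjusted p = 0.0742). Its wild-type libraries had 0.345, 0.309, 0.186 and 0.0730 CPM, and its Neat1 null libraries 1.797, 0.235, 1.45 and 0.377 CPM. Neat1 null libraries 1 and 3 carried this difference, with 20 and 41 of the 81 reads in the Neat1 null group. It passed without Neat1 null library 2 (adjusted p = 0.0436) and with DESeq2.

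Levels of different genes were compared per kilobase of exon. Among alpha subunits in wild-type libraries the order was Itga5 (34.7 ± 7.71 CPM per kilobase, SD, n = 4), Itga3 (22.1 ± 1.49), Itgav (18.03 ± 4.32) and Itga6 (16.3 ± 5.56). Itgav and Itga6 stood within their spread of each other, and Itga7 followed at 2.85 ± 1.52. In Neat1 null libraries Itgav and Itga6 had 7.59 ± 3.22 and 7.27 ± 4.26 CPM per kilobase, and Itga5 and Itga3 had 35.5 ± 16.03 and 27.3 ± 8.70. Of the beta subunits Itgb1 held 69.8 ± 9.67% of the summed level per kilobase in wild-type libraries and 67.3 ± 14.7% in the Neat1 null group. The share of Itgb3 was 11.7 ± 4.48% and 4.74 ± 1.28%, and that of Itgb5 was 17.6 ± 5.36% and 27.4 ± 14.9%, with 47.9% in Neat1 null library 3. Both shares overlapped between the groups. The summed level of alpha subunits per kilobase was 98.2 ± 16.1 in wild-type libraries and 81.4 ± 15.03 in the Neat1 null group, with overlap.

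Laminin alpha chains came almost entirely from Lama5, with 87.9 ± 2.79% of the summed level per kilobase in wild-type libraries and 94.4 ± 4.96% in the Neat1 null group. The share of Lama4 was 10.6 ± 2.41% in wild-type. In Neat1 null libraries it was 1.71%, 3.78%, 2.15% and 10.7%, so library 4 had a wild-type share. Lamb1 made up 54.6 ± 4.31% of beta chains in wild-type libraries and 65.5 ± 5.87% in the Neat1 null group. Summed beta chains were 61.7 ± 11.2 CPM per kilobase in wild-type libraries and 36.5 ± 12.8 in the Neat1 null group, without overlap. Wild-type library 2 (50.9) and Neat1 null library 1 (49.7) nearly met. Summed in CPM, not divided by length, the beta chains overlapped in these libraries (421 and 426). Summed alpha chains (31.0 ± 14.5 and 15.6 ± 7.39) overlapped.

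**Figure D3:**
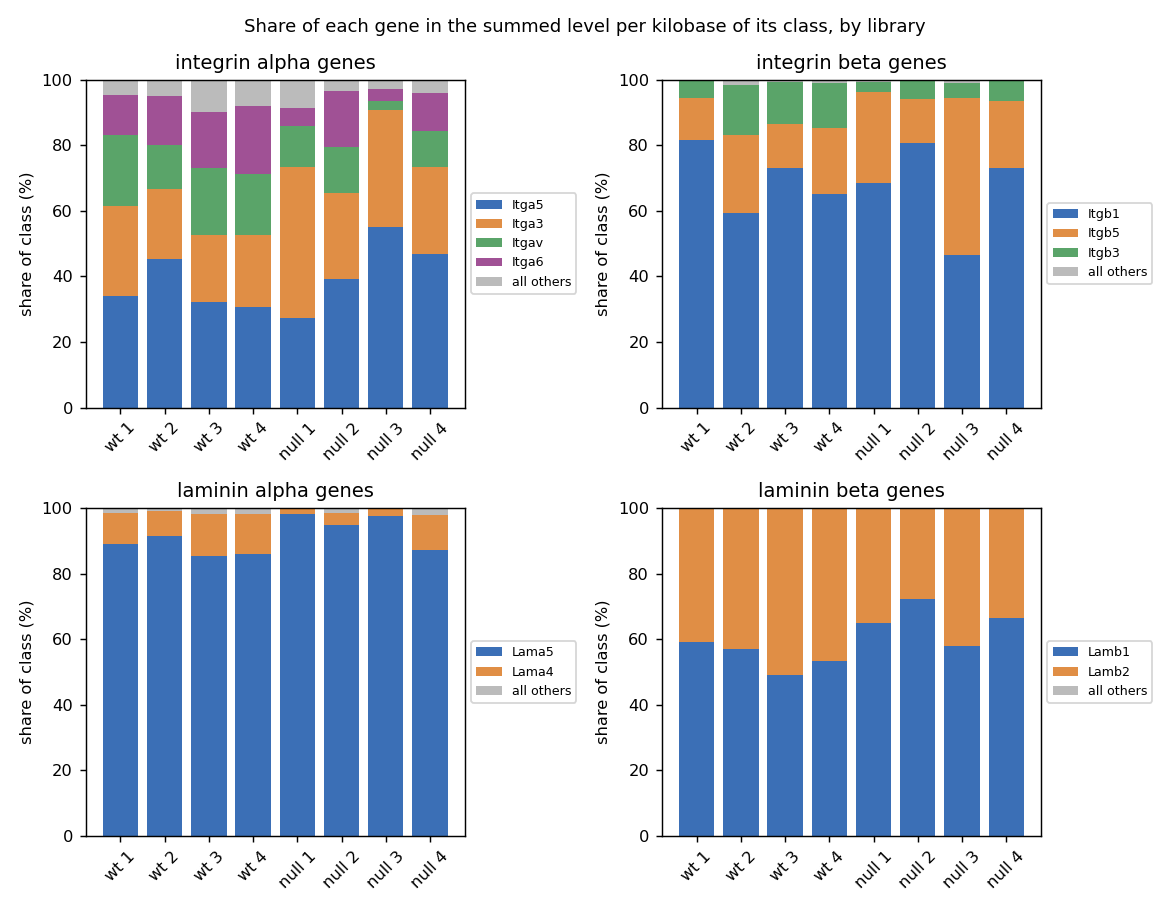
Share of each gene in the summed level per kilobase of exon of its class, in percent, for wild-type (wt) libraries 1 to 4 and Neat1 null libraries 1 to 4. Itgav takes 2.73% and Itgb5 47.9% of their class in Neat1 null library 3, and Lama5 takes at least 85.4% of laminin alpha chains in every library.

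A ratio of 2 subunits within a library does not depend on how libraries are scaled. Itgav ran at 0.0885, 0.129, 0.102 and 0.109 of Itgb1 per kilobase in wild-type libraries and at 0.0662, 0.0596, 0.0475 and 0.0586 in Neat1 null libraries. The groups did not overlap, and the Neat1 null libraries lay close together. Itgb3 ran at 0.403, 0.645, 0.965 and 0.668 of Itgb5 in wild-type and at 0.108, 0.399, 0.0975 and 0.292 in Neat1 null libraries, where wild-type library 1 and Neat1 null library 2 nearly met. Itgav against Itga3 was also without overlap (0.809 ± 0.154 and 0.322 ± 0.194), whereas Itgav against Itga5 overlapped (0.542 ± 0.167 and 0.273 ± 0.175). Lama4 against Lama5 overlapped through Neat1 null library 4, at 0.122 against 0.0837 to 0.150 in wild-type libraries. The pairs were chosen after the values were seen and carry no test.

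**Figure D4:**
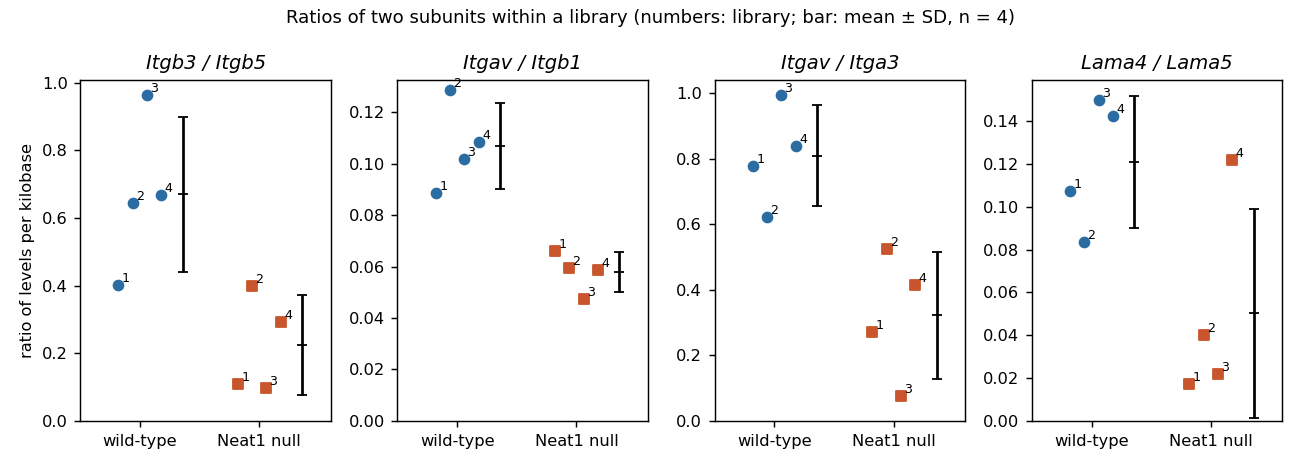
Ratio of the levels per kilobase of exon of 2 subunits within each library, for Itgb3 to Itgb5, Itgav to Itgb1, Itgav to Itga3 and Lama4 to Lama5, with each library numbered and the mean ± SD of 4 libraries as a black bar. The first 3 ratios are lower in every Neat1 null library than in every wild-type library, and the last is not, through library 4. Trends with gene length were not removed from these ratios.

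Most integrin subunits of leukocytes were untested for lack of reads, while Itgb7, Itgae and the platelet subunit Itga2b were tested. Itgad had 0 counts in all libraries, which allows 0.0663 to 0.269 CPM per library. Itgal, Itgam and Itgax, the alpha subunits that pair with Itgb2, had 19, 3 and 8 reads in the wild-type group and 11, 3 and 8 in the Neat1 null group. Itgb2 itself had 43 and 8. The leukocyte markers Ptprc and Tyrobp had 0 counts everywhere, and 5 of the 7 in the tables stayed below 1 CPM. Their sum ran from 2.92 to 3.68 CPM in wild-type and from 5.33 to 16.3 CPM in Neat1 null libraries, carried by Coro1a. Coro1a was higher without overlap, at 2.44 to 2.94 CPM in wild-type and 5.15 to 16.1 CPM in Neat1 null libraries (log2 fold change 1.95, adjusted p = 0.0190), and its part in these genes' levels was not tested. Itga2b, the platelet subunit, was tested, with 2.92, 9.46, 12.4 and 12.7 CPM in wild-type and 9.16, 4.14, 7.73 and 5.18 CPM in Neat1 null libraries (log2 fold change -0.52, adjusted p = 0.455), although the platelet genes Pf4 and Ppbp had 0 counts. Itgae, the partner of Itgb7 in leukocytes at epithelia, stayed below 1.5 CPM and did not pass (log2 fold change -1.01, adjusted p = 0.253). Itga8 and Lamb3 were also untested, with at most 2.14 and 0.565 CPM. Itga9, a subunit that binds tenascin C, had 1.999 ± 1.72 and 0.898 ± 0.262 CPM and did not pass (adjusted p = 0.225).

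The libraries did not contribute evenly. Wild-type libraries 3 and 4 each held the highest value of 11 of the 28 tested genes, against 1692 and 1734 of all 13316, and Neat1 null library 3 held the lowest of 11, against 3938 of all 13316. Among the 4 wild-type libraries, number 1 was lowest for 18 genes and number 2 for 9. Of the 8 called genes, the highest value was in wild-type library 3 for 6 and in library 4 for 2.

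Most of these genes are long, and the trend of level with transcript length differed between libraries. Relative to the mean of all libraries, its slope (log2 level on log2 exon length) was 0.21, 0.14, 0.25 and 0.24 in wild-type libraries 1 to 4. In Neat1 null libraries 1 to 4 it was -0.31, 0.007, -0.48 and -0.05, so libraries 1 and 3 stood furthest from the wild-type ones. The source of this trend was not tested. Of the 28 tested genes 25 had more exon sequence than the median of all genes tested (4462 bases), and the 8 called genes had a median of 11406 bases. Spearman's rho between exon length and log2 fold change was -0.409 across 13225 genes, a description only, since genes share the libraries. After correction for length and GC content, which called 12.6% of all genes in place of 17.7%, 4 of the 8 were called, namely Itga2 (-2.47, adjusted p = 0.0499), Itga4 (-2.53, 0.0346), Itgb3 (-1.62, 0.0375) and Lama4 (-1.99, 0.0394). Itga1 (-1.76, 0.0609), Lama2 (-2.71, 0.0638), Lamb2 (-1.11, 0.0518) and Itgav did not pass. All 28 corrected values but those of Itga3 and Lamc3 were below 0, against a median of 0.09 over all genes. With sex as a covariate, which sets Neat1 null library 3 against the female wild-type libraries and called 25.4% of all genes, Itga4, Itgav, Itgb3, Lama2 and Itgb8 were lower (adjusted p = 0.0143 to 0.0480). Itga4 and Itgb3 were the only 2 of the 8 called in both of these fits.

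Genes on either side of the receptors were counted in 4 lists. Of 34 tested genes for integrin adaptors and focal adhesions, 2 were lower and 1 higher, a share of 8.82% against 17.7% of all genes called in either direction, with a median log2 fold change of 0.13. At an unadjusted p under 0.05, 3 were lower and 5 higher, against 36% of all genes in either direction. DESeq2 called 3 lower and 3 higher of 36, against 23.9% of all genes. Tns1, a tensin that links integrin tails to actin, fell from 9.28, 11.6, 45.5 and 47.6 CPM to 1.53, 3.61, 6.49 and 3.64 CPM (log2 fold change -2.89, SE 0.59, adjusted p = 0.0180). The adaptor Nck1 fell by 1.15 on the log2 scale (adjusted p = 0.0426), and Itgb1bp1, which binds the Itgb1 tail and holds integrins inactive, rose by 1.02 (adjusted p = 0.0442). With a library left out, the call of Nck1 held in 2 of 8 fits (without wild-type or Neat1 null library 2) and that of Itgb1bp1 in 1 (without Neat1 null library 2), and both were lost with the replicate block. Exons of Itgb1bp1 overlap Asap2 and Cpsf3 on the other strand. The core adaptors Tln1, Vcl, Pxn and Ptk2 did not pass, with log2 fold changes of 0.21, -0.54, 0.07 and -0.25. Neither did Ilk, Zyx and Src, with higher estimates of 1.32, 1.06 and 0.89 (adjusted p = 0.0616, 0.0974 and 0.0927, edgeR).

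Among 25 tested ligands of integrins, 4 were lower and 0 higher, a share of 16%, near the 17.7% of all genes called, with a median of -0.57. At an unadjusted p under 0.05, 6 were lower and 0 higher, against 36% of all genes in either direction. DESeq2 called 5 lower and 0 higher of 24, against 23.9% of all genes. Those called by edgeR were Edil3, an RGD protein bound by Itgav receptors (-3.10, SE 0.65, adjusted p = 0.0180), Vcam1, a ligand of Itga4 (-2.91, SE 0.63, adjusted p = 0.0181), Col6a1 (-2.25, adjusted p = 0.0217) and nephronectin, Npnt (-1.59, adjusted p = 0.0413). Npnt kept its call only when wild-type library 2 was dropped, and lost it in the other 7 such fits. Vcam1 had 7.48, 2.83, 20.2 and 4.63 CPM in wild-type and 1.797, 0.909, 1.20 and 0.847 CPM in Neat1 null libraries. Fibronectin, Fn1, did not pass (0.29, adjusted p = 0.655).

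Of 16 tested basement membrane partners of laminin, 5 were lower and 0 higher, a share of 31.2% against 17.7% of all genes called. Their median was -1.26, against -0.06 over all genes. At an unadjusted p under 0.05 Sparc was higher (1.10), and DESeq2 called 8 lower and 1 higher of 21, against 23.9% of all genes. Col18a1 fell from 133, 416, 828 and 969 CPM to 64.8, 59.1, 118 and 71.3 CPM (-2.91, SE 0.55, adjusted p = 0.0180). The laminin-binding netrin Ntn4 (-2.53, SE 0.46), the collagen IV chain Col4a5 (-2.32, SE 0.47) and Egflam, or pikachurin (-4.77, SE 1.01), also fell, each with an adjusted p of 0.0180, and Frem2, named after its values were seen, was the fifth (-1.98). Egflam stood below the count limit in all 4 Neat1 null libraries, at 0.0898 to 0.212 CPM, and entered the test through the 4 wild-type libraries. The share called in this list therefore carries no weight of its own. Nid1, the nidogen that joins laminin to collagen IV, did not pass (-1.02, adjusted p = 0.165). Of 21 genes for dystroglycan and other laminin receptors, 2 were lower and 1 higher (14.3%, against 17.7% of all genes), with a median of -0.25. At an unadjusted p under 0.05, 3 were lower and 4 higher, against 36% of all genes in either direction. DESeq2 called 3 lower and 3 higher of 21, against 23.9% of all genes. Dystrophin, Dmd, and utrophin, Utrn, fell by 1.98 and 1.53 on the log2 scale (adjusted p = 0.0183 and 0.0279), and Gmppb, which supplies GDP-mannose, rose by 1.22 (adjusted p = 0.0431), a call that held in 3 of 8 fits with a library left out (lost without library 1 or 3 of either group, or wild-type library 4). Dag1, dystroglycan itself, did not pass (-0.30, adjusted p = 0.568). Col4a5 and Dmd lie on the X chromosome. All wild-type libraries were female and only number 3 of the Neat1 null ones was, so sex largely went with genotype for these genes. Leaving out wild-type library 3 or 4, or Neat1 null library 3, again gave 0 calls in all 4 lists, with 4 to 8 genes per list at an unadjusted p under 0.05. In those fits at most 0.135% of all genes were called. The 36% of all genes at that unadjusted threshold belongs to the fit with all libraries.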

How the data were processed

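Raw read counts per gene symbol were deposited by the authors, 1 file per library, and used as they stand. Per the submitters' processing notes CASAVA 1.8, STAR and DESeq2 were used with mm10, without their roles, and the labels name a stranded TruSeq kit; how reads were counted, whether by strand, and with which gene models is not given in the sources used here. The 2 rows that name no gene (reads outside genes, 5.48% to 15.7% of all counts per library, and ambiguous reads, 1.09% to 1.76%) were left out.

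Genes were kept with filterByExpr (minimum count 10) of edgeR 4.0.16 in R 4.3.3, scaled with TMM factors and tested with the robust quasi-likelihood F test, genotype the only term, 2-sided. A standard error is the log2 fold change divided by the square root of F, and 95% intervals come from it. Levels per kilobase use the union of exons in GENCODE M21 (GRCm38, also called mm10), which matched 21777 symbols directly and 1305 by synonym. Promoters come from the RefSeq table for GRCm38.p6. Members, gene lists and alternatives were chosen with earlier results of these data known. Genes named are all members except 1, which is counted but not reported here, and from each of 4 pathway lists up to 4 called genes with the smallest p, beside some core genes named after their values were seen. The alternatives were RLE and upper-quartile factors, other count limits, no robust option, DESeq2 1.42.0, a replicate block, a length and GC correction (splines, 5 degrees of freedom), sex, an adjusted p under 0.1 and libraries left out.

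The closest pair of libraries in a group differed by a chi-square of 62.1 per degree of freedom, more than sampling noise. Every pair that held Neat1 null library 1 or 3 differed by 504 to 1201, and all other pairs by at most 442. The TMM factors of these libraries were 0.567 and 0.728, against 1.01 to 1.33 in the other libraries. On simulated counts for this comparison (13213 genes) the fit found 2% of the genes set to a 2-fold change, 63.3% at 4-fold and 96% at 8-fold, and 3.76% of 133 calls were false. The counts were drawn independently per gene, with no length trend, sex difference or effect shared by the genes of a library. Only 48 to 50 tested genes were changed at each fold. These shares therefore do not give the share of false calls in the real data.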

Additional observations from a re-analysis of the deposited data

Results flagged for a closer look

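Of 58 groups of 4 libraries (28 tested integrin and laminin genes and Neat1, each in both genotypes), 2 held a library far from the other libraries of its group, by a gap over 0.829 of the whole range (Dixon). Chance alone flags about 5% of such groups. Itgav had 30.3 CPM in Neat1 null library 3, against 94.3 to 107 CPM in the other Neat1 null libraries. Lama4 had 14.4 CPM in Neat1 null library 4, against 3.55 to 5.19 CPM in the other Neat1 null libraries. Without library 3 the log2 fold change of Itgav was -0.96 (adjusted p = 0.0728), and without library 4 that of Lama4 was -3.23 (adjusted p = 0.0108).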

How the results depend on the processing

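The direction of all 8 called integrin and laminin genes stayed the same under every alternative that tested them (Itga2 and Lama2 fell out with at least 1 CPM in 4 libraries). The number called lower (8) was 7 with RLE and 9 with upper-quartile factors, which shifted the all-gene median from -0.06 to -0.24 (log2). It was 4 after the length and GC correction, 5 with sex as a covariate, 0 without Neat1 null libraries 1 and 3 together (11 at an unadjusted p under 0.05), and 0 to 10 with 1 library left out. Without Neat1 null libraries 1 and 3 only 7 of all 14097 genes tested were called (0.0497%). The number called higher (0) was 1, Lamc3, in DESeq2, at an adjusted p under 0.1, and without Neat1 null library 2 (range 0 to 1). The cause was not tested.

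Focal adhesion genes called (3) were 6 in DESeq2, 1 with the replicate block, 11 with sex, 0 without Neat1 null libraries 1 and 3, 6 at an adjusted p under 0.1, and 0 to 4 with 1 library left out. Integrin ligands called (4) were 2 after the length and GC correction, 0 without both libraries, and 0 to 5 with 1 left out. Basement membrane genes called (5) were 9 in DESeq2, 2 with sex, 0 without both, and 0 to 6 with 1 left out. Dystroglycan and receptor genes called (3) were 6 in DESeq2, 0 after the length and GC correction, 6 with sex, 0 without both, 6 at an adjusted p under 0.1, and 0 to 4 with 1 left out. The counts of 0 without both libraries stood beside 5, 9, 10 and 5 at an unadjusted p under 0.05 in these lists, and that after the correction beside 6. Of all genes, 0.0497% were called without both libraries. With all libraries kept, 36% of all genes had an unadjusted p under 0.05. Neat1 had a log2 fold change of -6.34 without both libraries (adjusted p = 0.0899).

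Signs turned in 3 uncalled genes. Itga5 (0.03) was -0.16 with upper-quartile factors, -0.054 with the replicate block, -0.094 after the length and GC correction, -0.090 without both libraries and -0.28 to 0.23 with 1 left out. Itgb5 (0.14) was -0.084 with upper-quartile factors, -0.092 after the correction, -0.29 without both, and -0.017 to 0.33 with 1 left out. Itga3 (0.30) was -0.16 without both. Replicate numbers are shared between the groups only as numbers: same-numbered libraries correlated at 0.317, -0.258, -0.0140 and 0.107, and not every library correlated best with its own number. With the replicate block 9 genes were called lower. On simulated counts, where 133 genes were called against 2356 in the data, changes of 2-fold were mostly not found. Some genes near 2-fold did pass in the data, such as Itgb1bp1 (1.02) and Lamb2 (-1.18).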
